A study of Mus musculus with 8 samples.

Results

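Interferon-stimulated genes are the genes that a cell switches on when it meets a type I interferon. The 41 genes described here were chosen by name from common knowledge of this response, with no threshold on a measured value but with earlier results of these data known, and all 41 are among the 23141 genes of the count table. RNA of RAW264.7 cells, an established mouse macrophage line, was sequenced before LPS (0 min) and every 15 min up to 90 min, and last at 120 min, with LPS, the lipopolysaccharide of the bacterial cell wall, given at 100 ng/ml. Each of these 8 groups is 1 library, and the labels name no genetic change, so no difference between times has a replicate check. The labels call the RNA fraction cytoplasmic, whereas the study's text speaks of total RNA for the sequenced samples.

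LPS is sensed by TLR4, which signals through the adaptors MYD88 and TRIF. The TRIF branch activates the kinases TBK1 and IKKε and the transcription factor IRF3, which drives the interferon beta gene Ifnb1. Secreted interferon then binds the IFNAR1 and IFNAR2 receptor chains, the kinases JAK1 and TYK2 phosphorylate STAT proteins such as STAT2, and STAT2 joins IRF9 in a complex that binds interferon-stimulated response elements (ISREs) in promoters. A part of these genes can also be switched on directly by IRF3 or, in the guanylate-binding protein family, by IRF1 or through GAS elements. Their products restrict viruses and intracellular bacteria, sense foreign nucleic acids or tag proteins with ubiquitin-like modifiers.

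Promoter sequence from RefSeq (GRCm38.p6, 250 bases before to 50 bases after the annotated start) was matched for 30 of the 41 genes. The ISRE core, spelled GAAANNGAAA and searched on both strands, occurred in the promoters of 19 of these 30 genes (63.3%), against 3.99% of 27025 genes with a promoter entry. The windows below are shown because they carry this shared element in the genes that rose most, with the core in capitals, written on the strand of the gene; where a gene has several matches, the one farthest upstream is given. The windows of Stat2 and Trim21, which fell, were added after their values had been seen, to show that genes of both directions carry the core.
Isg15 (chr4:156200877-156200906, minus strand, core starting 78 bases before the start): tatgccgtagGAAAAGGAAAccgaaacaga
Ifit1 (chr19:34640775-34640804, plus strand, 104 bases before): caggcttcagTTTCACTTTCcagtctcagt
Gbp2 (chr3:142620594-142620623, plus strand, 59 bases before): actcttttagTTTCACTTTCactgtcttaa
Gbp3 (chr3:142559989-142560018, plus strand, 45 bases before): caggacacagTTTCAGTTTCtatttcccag
Rsad2 (chr12:26456553-26456582, minus strand, 120 bases before): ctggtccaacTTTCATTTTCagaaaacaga
Ifi205 (chr1:174031870-174031899, minus strand, 134 bases before): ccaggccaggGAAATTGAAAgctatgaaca
Ifih1 (chr2:62646206-62646235, minus strand, core at base 33 of the transcript): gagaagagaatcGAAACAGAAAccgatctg
Stat2 (chr10:128270266-128270295, plus strand, 222 bases before): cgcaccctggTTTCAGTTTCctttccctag
Trim21 (chr7:102565450-102565479, minus strand, core at base 14 of the transcript): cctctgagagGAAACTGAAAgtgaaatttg
In Ifit1, Gbp2, Gbp3, Rsad2 and Stat2 the core lies on the opposite strand and is therefore printed as its reverse complement.

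The ISRE core was present in 7 of the 10 genes with a promoter entry that were called higher at some time, in 3 of the 5 called lower and in 8 of the 14 never called. No core was found in the window of Oasl1, which rose 16.3-fold, nor in that of Ifit2, which fell most. The other motifs were closer to their share in all promoters: GAS (TTCNNNGAA) in 23.3% against 9.55%, the NF-κB core (GGGANNNNCC) in 26.7% against 22.9% and AP-1 (TGANTCA) in 23.3% against 8.97%. The palindromic GAS and AP-1 letters read alike on both strands, and no match was required to be free of another. Within the 250 bases before the start alone, the ISRE core was held by 50% of the 30 genes and by 3.46% of all genes with an entry.

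The 8 libraries held between 100229997 and 159036125 counts. The ribosomal RNA precursor Rn45s took 8.18% to 9.11% of them at 0, 30, 60 and 120 min and 12.96% to 20.54% at 15, 45, 75 and 90 min, so these 4 libraries stand apart. A change between these 4 and the others, such as the step from 90 to 120 min, falls together with this difference. Of the macrophage markers, 7 of 8 were found under the symbols searched, and they summed to 5553 to 6711 cpm, counts scaled to the library total, in every library. All 4 T cell, 3 B cell, 3 epithelial, 3 fibroblast and 2 endothelial markers stayed under 1 cpm. Counts are given below as normalized counts, divided by a median-of-ratios size factor per library. These compare times within a gene but not genes with each other, since they grow with transcript length.

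A rise of interferon-stimulated genes preceded 90 min. A total of 38 of these genes averaged 10 or more normalized counts over the libraries and were tested. Of these, 9 were called higher than at 0 min at 75 min or before, against 7.97% of all 12164 genes tested. The first was Gbp3 at 30 min, a call that 5 of the alternatives in the closing section lost, followed by Isg15, Oasl1, Gbp2 and Parp14 at 45 min, Ifit1, Rsad2 and Ifih1 at 60 min and Ifi204 at 75 min. None was first called at 90 min, and Isg20, Mx2, Ifi205, Irf7 and Rtp4 followed at 120 min. No call at 45 min held with Benjamini-Hochberg adjustment over all genes tested. With total counts as the scale, Gbp2 and Gbp3 alone were higher at 45 min. The 45 min library is also one of those with a high Rn45s share. A call means a log2 ratio to 0 min beyond 0.5 and an unadjusted p under 0.05 in an exact negative binomial test, which compares 2 libraries and not the conditions. In RNA of whole cultures, fewer cells with a transcript and less of it per cell cannot be told apart.

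No gene of the 38 was called at 15 min, where 0.345% of all genes tested were higher and 0.173% lower. At 30 min, 1 was higher (background 1.35%) and 0 lower (0.271%). At 45 min, 5 were higher (4.62%) and 0 lower (1.88%). At 60 min 7 were higher (4.2%) and 2 lower (3.02%). The counts were 8 higher (5.84%) and 4 lower (4.31%) at 75 min, and 8 higher (7.04%) and 4 lower (5.52%) at 90 min. At 120 min 14 were higher (9.43%) and 4 lower (8.56%), so that 36.8% of the 38 were higher and 10.5% lower. Ifi205 is among the 14 and passed the minimum for a test only through the 120 min library. The median log2 ratio of the 38 stayed between -0.11 and 0.11 up to 90 min and was 0.35 at 120 min, while that of all genes tested was -0.01. In the 0, 30, 60 and 120 min libraries alone, the count at 60 min was again 7, of the same 7 genes, and that at 120 min was 13, without Irf7, but Gbp3 lost its call at 30 min.

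**Figure D1:**
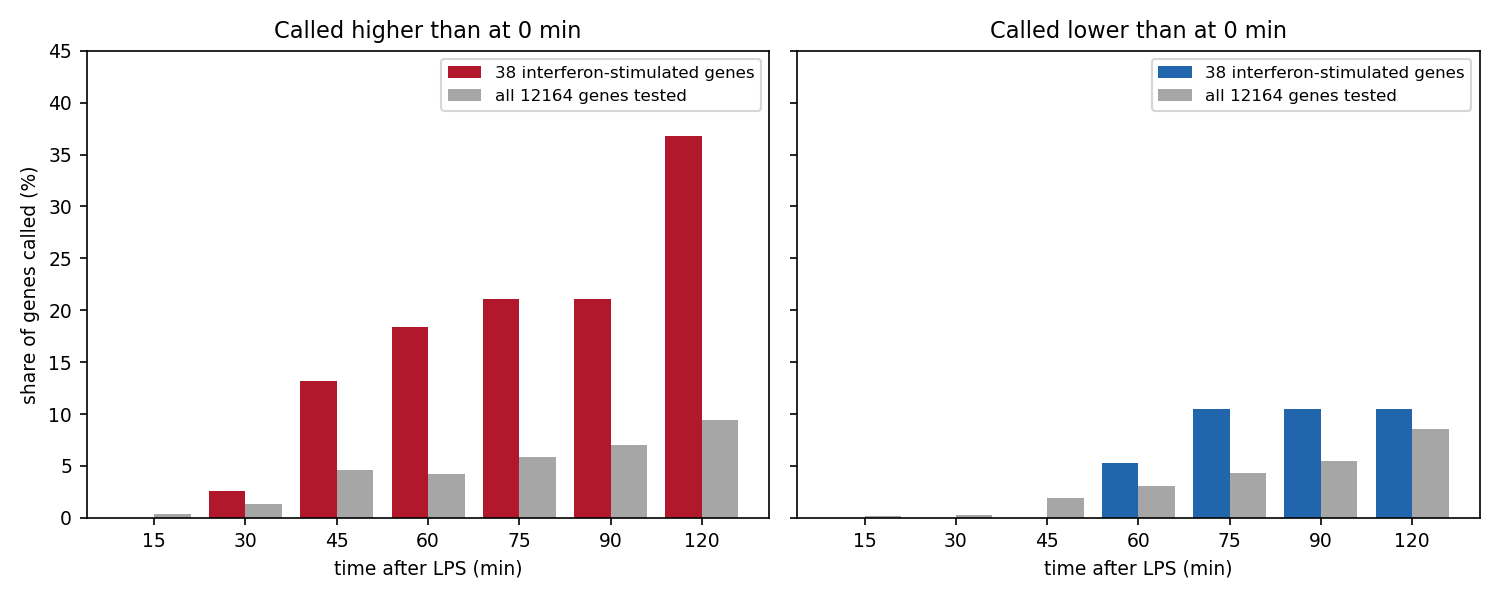
Share of genes called higher (left) or lower (right) than at 0 min, in percent, by time after LPS, for the 38 interferon-stimulated genes (coloured bars) and for all 12164 genes tested (grey bars), 1 library per time. The coloured bar for higher calls rises from 0 at 15 min to 36.8% at 120 min, against 9.43% of all genes, while the coloured and grey bars for lower calls at 120 min are 10.5% and 8.56%.

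**Figure D2:**
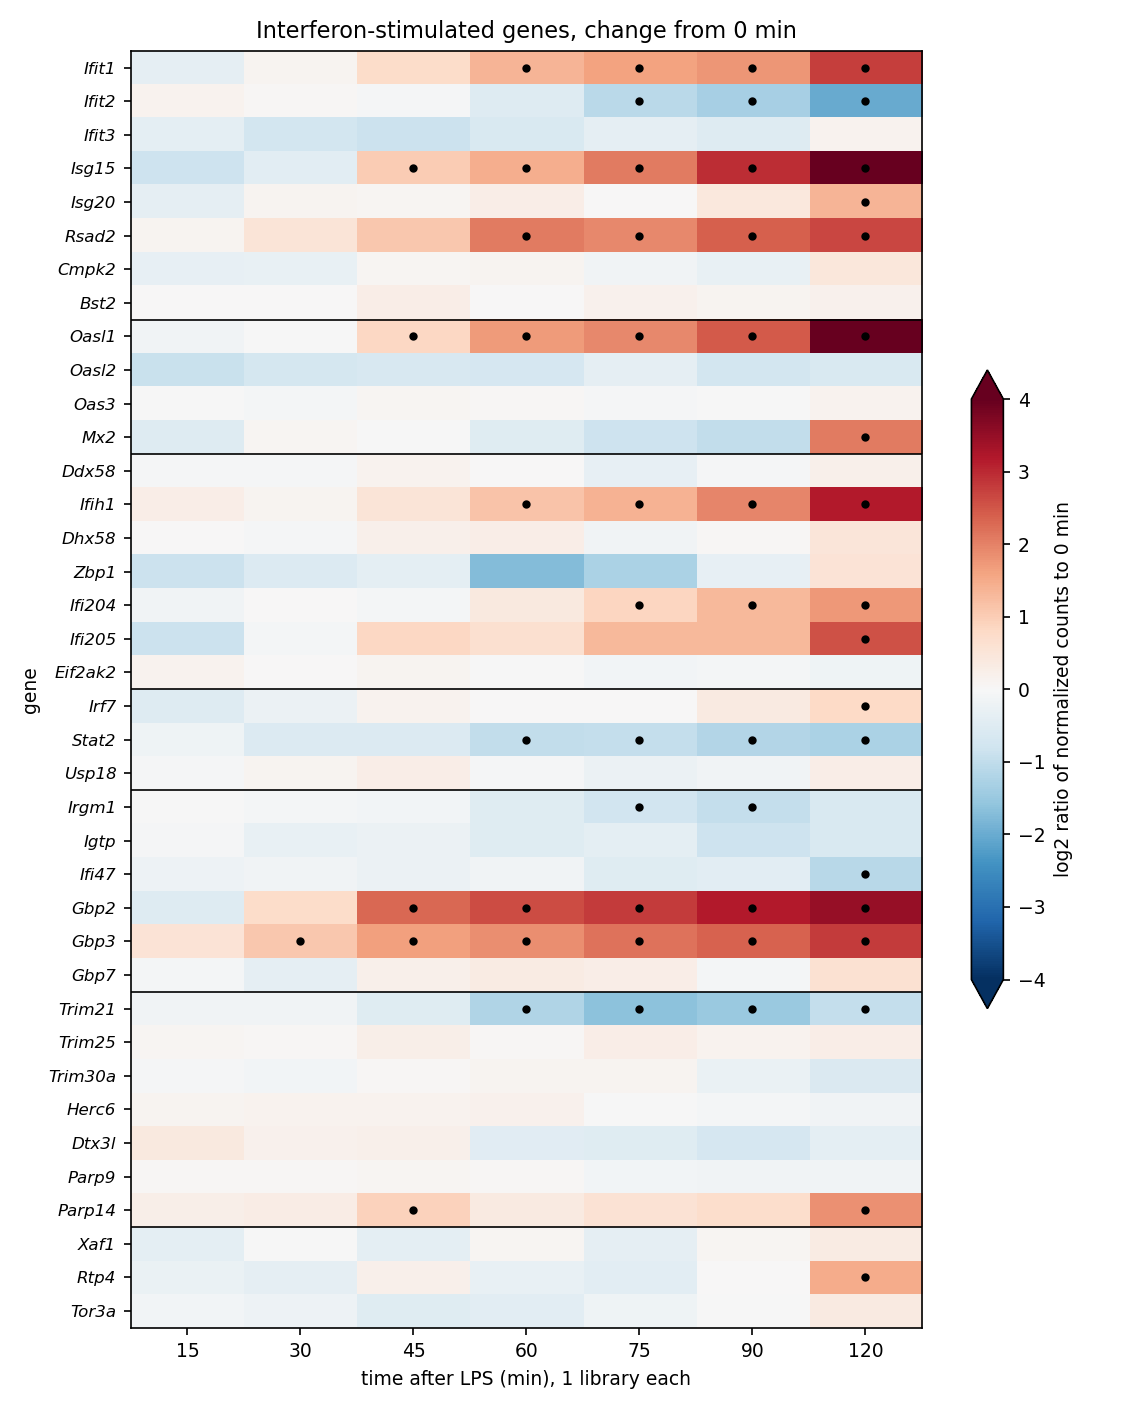
Log2 ratio of normalized counts to 0 min (colour) for the 38 genes tested (rows) at each time after LPS in min (columns), 1 library each; black dots mark calls, horizontal lines separate the functional groups in the order of the text, and colours end at 4. The dotted rows are 14 red and 5 blue ones, and the other 19 rows carry no dot.

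Among the IFIT proteins and other antiviral effectors, 4 of 8 were higher and 1 was lower at 120 min. Isg15, a ubiquitin-like modifier that is conjugated to proteins, rose most of the 38. In the order of the times, from 0 to 120 min, Isg15 had 48.8, 27.6, 36.0, 99.4, 133, 206, 378 and 1242 normalized counts. It was lower at 15 and 30 min, without a call, was above its level at 0 min from 45 min on and was highest in the last library. The ratio to 0 min was 2.04 at 45 min (95% interval 1.44 to 2.90) and 25.5 at 120 min (19.6 to 33.8). Against the library at 15 min, where it was lowest, the ratio at 120 min was 45.0. The 15 min library has a high Rn45s share, and in it 26 of the 38 genes had a log2 ratio under 0. The intervals, here and below, are exact conditional binomial ones and cover counting error only.

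Ifit1, which binds RNA without the cap marks of the host, had 47.9, 37.1, 51.6, 79.1, 124, 145, 164 and 325 normalized counts in the order of the times. It rose in each library after 15 min, by 2.58-fold at 60 min (1.88 to 3.59) and 6.78-fold at 120 min (5.12 to 9.14). Rsad2, viperin, a radical SAM enzyme that makes a chain-terminating nucleotide, had 21.4, 22.8, 30.3, 45.2, 90.8, 80.3, 112 and 136. Its ratio was 4.25 at 60 min (2.72 to 6.87) and 6.37 at 120 min (4.17 to 10.1), so most of its rise was present by 60 min.

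Isg20, an RNA exonuclease, lay between 22.8 and 39.4 normalized counts up to 90 min and reached 74.6 at 120 min, 2.56-fold above 0 min (1.71 to 3.92). Ifit2, of the same family as Ifit1, went the other way: its normalized counts were 692, 763, 708, 668, 486, 328, 277 and 170.2. It fell in every library after 15 min, was called lower from 75 min on and ended at 0.246 of its level at 0 min (0.210 to 0.287), the lowest ratio of the 38 at 120 min. Ifit3, Cmpk2 and Bst2 were called at no time. Their ratios at 120 min were 1.097 for Ifit3, 1.38 for Cmpk2, a mitochondrial nucleotide kinase, and 1.12 for Bst2, the tether that holds budding virions.

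Of the oligoadenylate synthetase and Mx families, 2 of the 4 genes tested were higher at 120 min. Oasl1, an oligoadenylate synthetase-like protein without the enzyme activity that is known to hold back translation of Irf7 mRNA, had 1055, 966, 1053, 1853, 3464, 3985, 5741 and 17205 normalized counts. The first 3 libraries were level and every later one was higher than the one before. Its ratio was 1.76 at 45 min (1.63 to 1.89), 3.28 at 60 min (3.079 to 3.504) and 16.3 at 120 min (15.4 to 17.3). The step from 90 to 120 min alone was 2.997-fold (2.902 to 3.095).

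Mx2, a dynamin-like GTPase, had 27.4, 19.0, 28.7, 27.1, 19.6, 15.5, 14.0 and 116 normalized counts. Its last library was 8.30-fold above the one at 90 min (4.501 to 17.0), the largest such step among the genes called higher at 120 min, and 4.23-fold above 0 min (2.87 to 6.42). Mx1, its antiviral paralog, was not tested: its raw count went from 1 to 12 over the whole course, a ratio of 11.4 with an interval of 1.68 to 486. Oasl2 and Oas3 were not called, with ratios of 0.651 and 1.095 at 120 min.

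**Figure D3:**
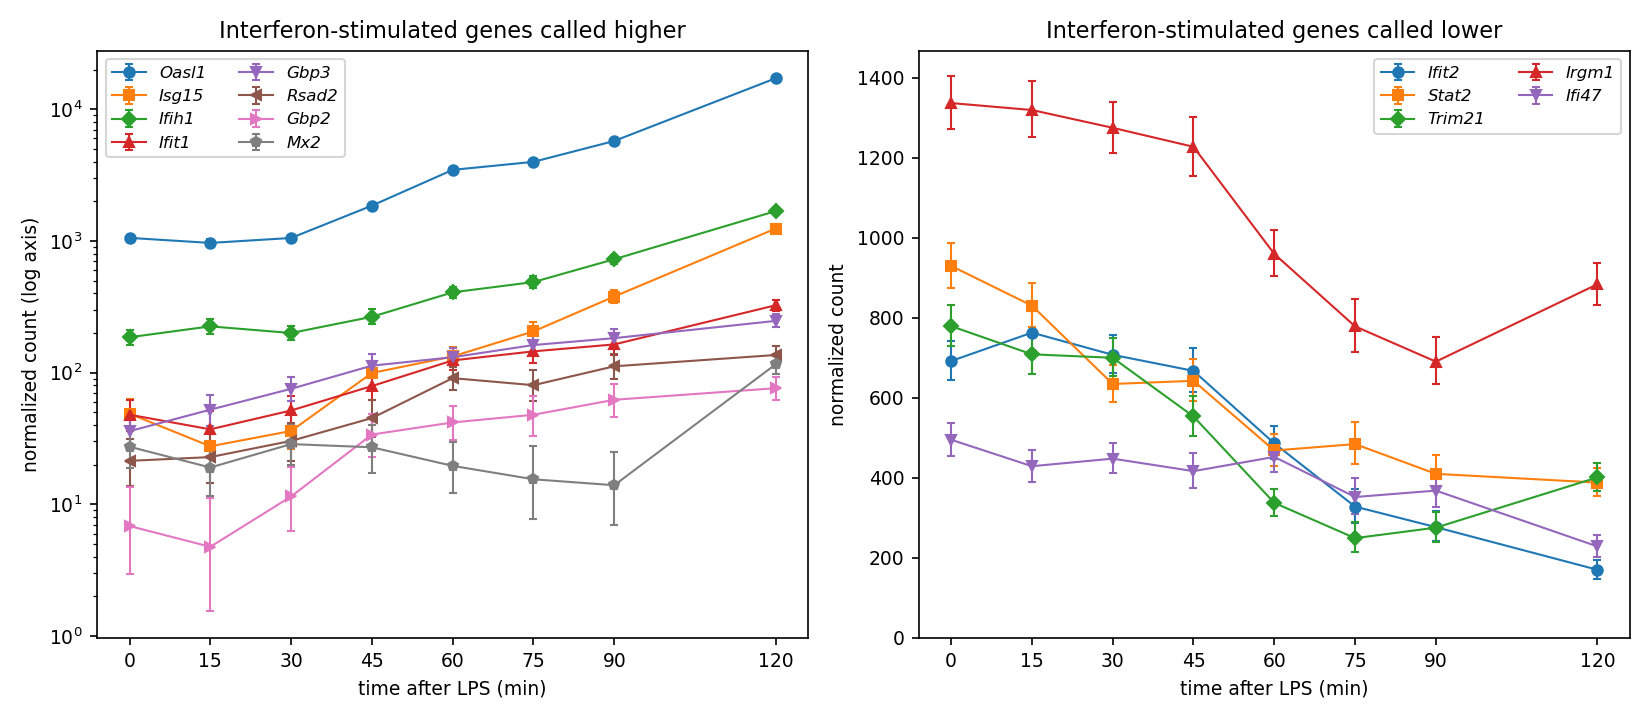
Normalized counts by time after LPS in min for 8 genes called higher (left, log axis) and the 5 called lower (right, linear axis from 0); points are single libraries and bars are exact Poisson 95% intervals of the count, with the size factor taken as known. Oasl1 runs from 1055 to 17205 and Mx2 stays at 14.0 to 28.7 until its rise to 116 at 120 min, while Ifit2 falls from 692 to 170.2 and Trim21 and Irgm1 turn up again in the last library.

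Among the sensors of foreign nucleic acid, 3 of 7 were higher at 120 min and none was lower at any time. Ifih1, the RNA helicase MDA5, had 186, 225, 200, 265, 407, 487, 726 and 1687 normalized counts. It was called from 60 min on (2.19-fold, 1.86 to 2.59) and reached 9.09-fold at 120 min (7.90 to 10.5). The call at 60 min was lost with Benjamini-Hochberg adjustment and with the spike-in transcripts as the scale. The other RIG-I-like receptors moved little: Ddx58, RIG-I itself, had a ratio of 1.15 at 120 min (1.03 to 1.28) and Dhx58, LGP2, one of 1.40 (1.23 to 1.60).

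Of the PYHIN proteins, which bind DNA, Ifi204 rose 1.82-fold at 75 min (1.64 to 2.01), when it was first called, and 3.32-fold at 120 min (3.06 to 3.62); 4 of the alternatives lost the call at 75 min. Normalized counts of Ifi205 were 5.13, 2.86, 4.91, 9.04, 8.01, 12.7, 12.7 and 30.0, with a ratio of 5.84 at 120 min that the 6 counts at 0 min leave wide (2.44 to 16.9). Reads matching more than 1 gene were discarded, which leaves 73.6% of the 58-base stretches of Ifi204, 52.1% of those of Ifi205 and 52.3% of those of Ifit3 to count from. Eif2ak2, the kinase PKR that halts translation on double-stranded RNA, had a ratio of 0.881 at 120 min (0.848 to 0.916) and was not called. Zbp1, a sensor of Z-form nucleic acid, had 24 counts in the first library and 37 in the last, with ratios of 0.304 at 60 min (0.111 to 0.726) and 1.46 at 120 min, and was not called either.

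The regulators of the response moved apart. Irf7, the factor that amplifies interferon production, was called at 120 min alone, at 1.74-fold (1.49 to 2.02), and this call was lost in 6 of the alternatives given in the closing section. Stat2, the STAT protein particular to type I and type III interferon signalling, had 930, 831, 635, 643, 468, 484, 410 and 388 normalized counts. All later libraries were under the one at 0 min and it was called lower from 60 min on, at 0.504 of its starting level (0.453 to 0.559) and at 0.418 by 120 min (0.374 to 0.465). Its calls at 60 and 75 min were lost with Benjamini-Hochberg adjustment and with a log2 limit of 1 without a test. The call at 75 min was also lost with the spike-in transcripts as the scale. Usp18, which removes Isg15 from proteins and blocks the receptor chain IFNAR2, was not called (1.195 at 120 min, 0.967 to 1.48).

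Of the GTPases that act on membranes around intracellular pathogens, 2 of the 6 tested were higher and 1 was lower at 120 min. Gbp3, a guanylate-binding protein, was the earliest of all, with 35.9, 52.3, 75.3, 113, 131, 162, 183 and 247 normalized counts. It was higher in each library than in the one before. The ratio was 2.10 at 30 min (1.44 to 3.10) and 6.88 at 120 min (4.97 to 9.74).

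Gbp2, a second protein of this family, had 6.84, 4.76, 11.5, 33.9, 41.9, 47.9, 62.2 and 76.2 normalized counts, from 8 raw counts in the first library to 94 in the last. It rose 4.95-fold by 45 min (2.22 to 12.5) and 11.1-fold by 120 min (5.42 to 26.5). Gbp7 was not called (1.51 at 120 min, 1.01 to 2.28) and Gbp5 was not tested, with 2 raw counts in the first library and 23 in the last, giving a ratio of 10.9 (2.69 to 95.3). The immunity-related GTPases did not rise. Irgm1 had 1337, 1320, 1275, 1228, 960, 779, 691 and 884 normalized counts, was called lower at 75 and 90 min and recovered by 1.28-fold from 90 to 120 min (1.15 to 1.42). Both calls were lost with Benjamini-Hochberg adjustment and with a log2 limit of 1 without a test. The call at 75 min was also lost on the spike-in scale. The 75 and 90 min libraries have a high Rn45s share, whose part in this fall and recovery was not tested.

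Ifi47, another immunity-related GTPase, had 495, 429, 448, 417, 452, 352, 368 and 229 normalized counts. It was called lower in the last library alone, at 0.461 of its starting level (0.399 to 0.533). Igtp had a ratio of 0.656 at 120 min and was not called, and Iigp1 was not tested, with 3 counts at 0 min and 0 at 120 min.

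Among the ubiquitin ligases and ADP-ribosyltransferases, 1 of 7 was higher and 1 was lower at 120 min. Parp14, a mono-ADP-ribosyltransferase, had 470.5, 548, 573, 883, 602, 700, 771 and 1672 normalized counts. It was called at 45 min (1.88-fold, 1.68 to 2.10) and again at 120 min (3.55-fold, 3.23 to 3.91) but not between, and the 45 min library is one of those with a high Rn45s share, whose part in this result was not tested. Trim21, an antibody receptor of the cytosol with ubiquitin ligase activity, had 779, 709, 700, 553, 338, 249.2, 276 and 401. It was lowest at 75 min, at 0.320 of its starting level (0.271 to 0.376), and rose 1.46-fold from 90 to 120 min (1.24 to 1.72). The 75 and 90 min libraries also have a high Rn45s share, whose part in this rise was not tested.

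The remaining members of this group were not called, with ratios at 120 min of 1.204 for Trim25, the ligase that activates RIG-I, 0.675 for Trim30a, 0.902 for Herc6, the mouse Isg15 ligase, 0.756 for Dtx3l and 0.903 for Parp9, which forms a complex with Dtx3l. Outside these groups, Rtp4, a chaperone of membrane receptors, was 2.77-fold above 0 min at 120 min (2.17 to 3.56) after 56.3 to 88.1 normalized counts in the libraries before. Xaf1, which opposes the apoptosis inhibitor XIAP, and Tor3a, a torsin ATPase, were not called (1.25 and 1.29). Over the 19 genes called at no time, the log2 ratio at 120 min ran from -0.62 to 0.60 and lay within 0.5 of 0 in 14.

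Several neighbours on a chromosome had unlike ratios (coordinates of GRCm38, GENCODE vM21). On chromosome 3, Gbp5 (142496934-142522344), Gbp7 (142530336-142550151), Gbp3 (142560016-142573213) and Gbp2 (142620663-142638008) lie in a row, and the ratio at 120 min was 1.51 in Gbp7 against 6.88 in Gbp3, 11.1 in Gbp2 and 10.9 in Gbp5. On chromosome 19, Ifit2 (34550550-34576534), Ifit3 (34583119-34588982) and Ifit1 (34640889-34650009) had ratios of 0.246, 1.097 and 6.78. On chromosome 12, Rsad2 (26442743-26456452) and Cmpk2 (26469117-26479837) had ratios of 6.37 and 1.38, and on chromosome 5, Oasl2 (114896926-114912245) and Oasl1 (114923143-114937911) had 0.651 and 16.3. In each of these clusters the intervals of the highest and the lowest gene did not overlap. They did overlap between Gbp3 and Gbp2, between Ifi204 (173747293-173767069) and Ifi205 (174011998-174031755) on chromosome 1, at 3.32 and 5.84, and between Mx1 (97447035-97462906) and Mx2 (97536081-97560901) on chromosome 16, at 11.4 and 4.23. The windows printed above show the same core in Ifit1, Gbp2 and Gbp3; the core was also present in Ifit3 and Gbp7.

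All 14 genes called higher were highest at 120 min. The step from 90 to 120 min was 3.28-fold in Isg15 (2.90 to 3.73), 2.32-fold in Ifih1 (2.12 to 2.55), 2.17-fold in Parp14 (1.98 to 2.38), 2.77-fold in Rtp4 (2.08 to 3.73) and 1.98-fold in Ifit1 (1.62 to 2.44). In Rsad2 and Gbp2 it was 1.22-fold with intervals that reach below 1 (0.936 to 1.60 and 0.858 to 1.77). In Gbp3 it was 1.35-fold (1.11 to 1.66). In Ifi204 it was 1.34-fold (1.25 to 1.44). The steps of the genes with an early call thus ranged from 1.22-fold to 3.28-fold, and a split into classes was not tested.

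Levels before LPS differed over a wide range, here per length as rpkm over the unique 58-base stretches of each transcript. At 0 min 19 of the 41 genes were above 1 rpkm and 8 were under 0.1 rpkm. The highest was Tor3a at 24.7 rpkm (exact Poisson 95% interval 24.2 to 25.2), followed by Bst2 at 14.5 (13.8 to 15.3) and Trim25 at 14.4 (14.1 to 14.6), which do not differ beyond their intervals, then Eif2ak2 at 9.58 (9.33 to 9.84) and Parp9 at 8.21 (7.95 to 8.47). None of these 5 was called at any time. Oasl1, at 4.55 rpkm (4.30 to 4.81), stood at place 7 at 0 min and was the highest at 120 min with 64.5 rpkm (63.7 to 65.4), above Tor3a at 27.7 (27.3 to 28.2). Isg15 went from place 23 at 0.622 rpkm (0.471 to 0.806) to place 5 at 13.8 rpkm (13.1 to 14.5).

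Of the 19 genes tested that were above 1 rpkm at 0 min, 2 were called higher (Oasl1 and Ifi204), 5 lower and 12 neither way. Of the 19 at or below 1 rpkm, 12 were called higher, 0 lower and 7 neither way. Over all 12164 genes tested, at any level, 11.8% were called higher and 11.1% lower at some time. The level at 0 min is also the denominator of the ratio that makes a call, and no such split was made for other genes. A fall among the rarest of the second set may not be detectable at this depth. Many of the genes with large ratios stayed rare: at 120 min Gbp2 was at 0.244 rpkm (0.198 to 0.299), Rsad2 at 0.284 (0.242 to 0.330) and Mx2 at 0.389 (0.328 to 0.458). At 120 min 21 of the 41 genes were above 1 rpkm.

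**Figure D4:**
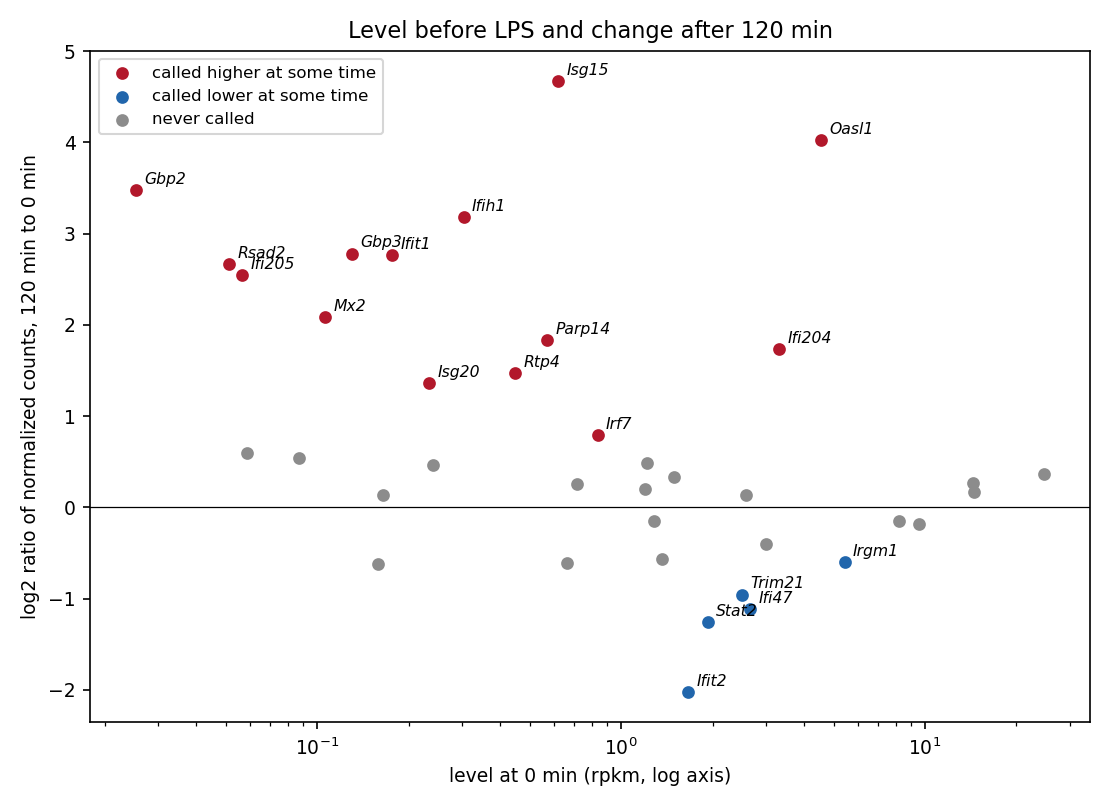
Level at 0 min (rpkm, log axis) against the log2 ratio of normalized counts at 120 min to 0 min for the 38 genes tested, coloured by call at any time, each point from 1 library per time. The 5 genes called lower lie at 1.66 to 5.44 rpkm, 12 of the 14 called higher lie under 1 rpkm, and Oasl1 and Ifi204 are the exceptions.

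The genes upstream of this response were measured in the same libraries. Ifnb1, the interferon beta gene, had 0, 1, 4, 13, 67, 73, 108 and 418 counts in the order of the times and was called higher from 45 min on. Set against a floor of 3 counts for the library at 0 min, its ratio was 5.72 at 45 min and 132 at 120 min. The lower 95% bounds of its ratio, which cover counting error only, were 4.02 at 45 min and 106.9 at 120 min. Isg15, Oasl1, Gbp2 and Parp14 were first called in the same library as Ifnb1. With Benjamini-Hochberg adjustment, Isg15, Oasl1, Gbp2 and Parp14 all lost their call at 45 min. Whether Ifnb1 itself, with 0 and 13 counts, kept its call at 45 min under the alternatives was not examined. Gbp3 was called 1 library earlier, but 5 of the alternatives lost that call, and the 4 counts of Ifnb1 at 30 min were too few to be called. Of the 17 interferon genes found in the table, 13 had no count in any library and Ifnb1 alone passed the minimum for a test.

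Among 7 genes of the TRIF branch and the cytosolic adaptors, 2 were higher and 2 lower at 120 min. Of all genes tested, 9.43% were higher and 8.56% lower at that time. Ticam1, which encodes TRIF, was called from 45 min on and reached 7.27-fold (6.80 to 7.79), and Ikbke, which encodes IKKε, was called from 60 min on and reached 8.12-fold (7.75 to 8.51). Ticam2, the adaptor that links TLR4 to TRIF, fell to 0.384 (0.340 to 0.432) and Mavs, the adaptor of RIG-I and MDA5, to 0.449 (0.421 to 0.478). Of the 7 receptor and JAK kinase genes, none was called up to 90 min. At 90 min, 7.04% of all genes tested were higher and 5.52% lower. At 120 min Jak2 was higher (1.90-fold, 1.83 to 1.97) and Ifngr1, an interferon gamma receptor chain, was lower (0.570, 0.549 to 0.592), while Ifnar1 and Ifnar2 had ratios of 0.849 (0.825 to 0.874) and 0.644 (0.626 to 0.662) and were not called.

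Of 5 IRF genes, 1 was higher and 2 were lower at 120 min, against 9.43% and 8.56% of all genes tested. Irf9, the DNA-binding subunit of the STAT complex, was level up to 60 min and had ratios of 0.751 at 75 min (0.692 to 0.816) and 0.793 at 90 min (0.733 to 0.857), without a call. At 120 min its ratio was 1.74 (1.64 to 1.84), and it was called in that library alone. Irf1 had 1684, 1886, 2356, 2390, 1388, 384, 368 and 485 normalized counts: its highest values were at 30 and 45 min, without a call, and it was lower from 75 min on, at 0.288 by 120 min (0.262 to 0.316). Irf8, a factor of the myeloid lineage, was lower at 90 and 120 min (0.556, 0.540 to 0.572). Irf3 had a ratio of 1.01 at 120 min (0.971 to 1.05) and was not called. Thus Stat2 and Irf9, whose proteins act in 1 complex, were both below their starting level at 75 and 90 min and were called in opposite directions at 120 min alone. The 75 and 90 min libraries have a high Rn45s share, whose part in the low values of Irf9 was not tested.

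**Figure D5:**
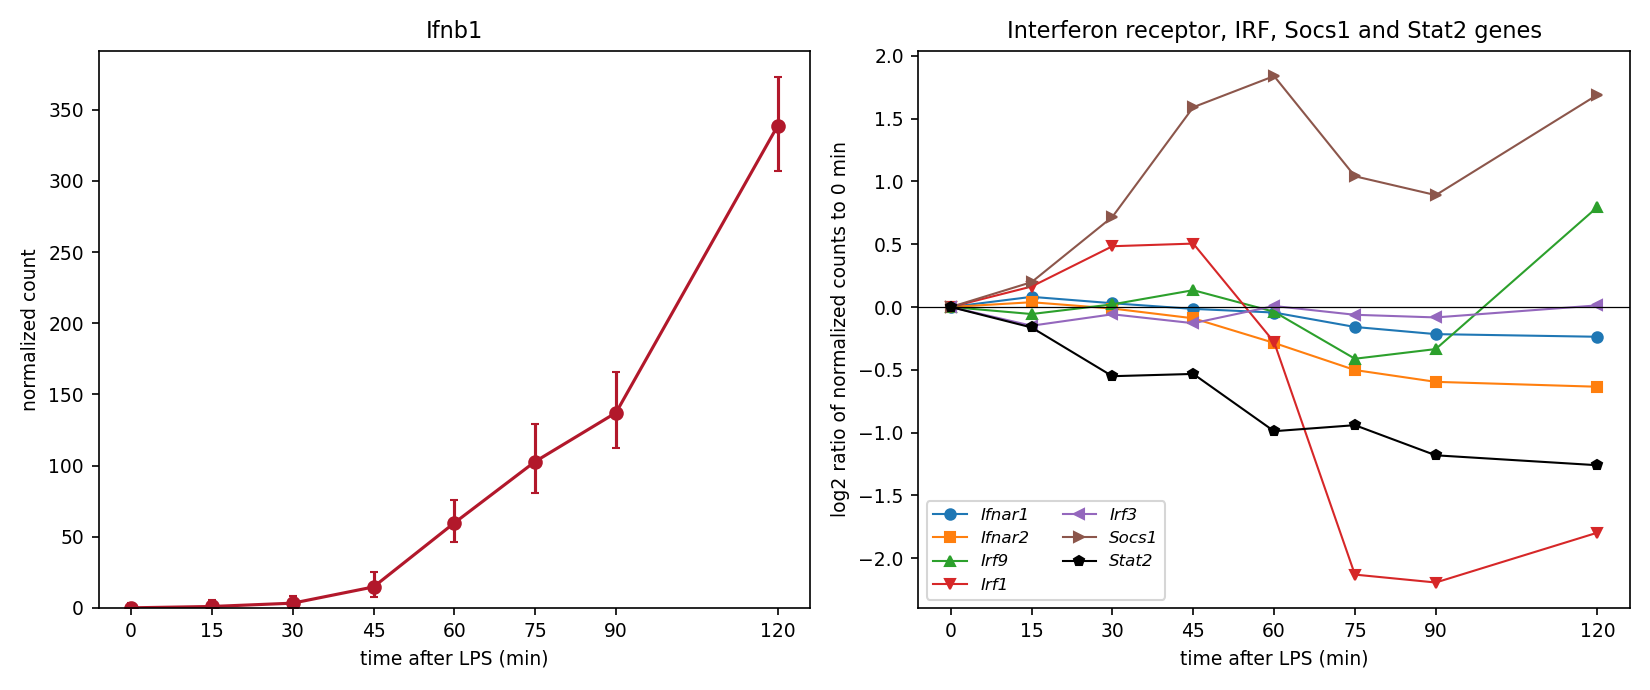
Left, normalized counts of Ifnb1 by time after LPS in min, with exact Poisson 95% intervals of the count; right, log2 ratio of normalized counts to 0 min for Ifnar1, Ifnar2, Irf9, Irf1, Irf3, Socs1 and Stat2, each point 1 library. Ifnb1 rises from 0 to 339 normalized counts, Irf1 drops to a log2 ratio of -1.80 at 120 min, and Irf9 turns from below 0 at 75 and 90 min to 0.80 at 120 min.

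Of 6 feedback inhibitors of JAK and STAT signalling, 2 were higher at 120 min, against 9.43% of all genes tested. Socs3, an inhibitor of cytokine receptors that signal through STAT3, was already called at 15 min and reached 50.7-fold (48.2 to 53.4). Socs1, which inhibits interferon receptor signalling, had 27.4, 31.4, 45.0, 82.5, 97.9, 56.3, 50.8 and 88.3 normalized counts and was called at 45, 60 and 120 min but not at 75 and 90 min. The 75 and 90 min libraries have a high Rn45s share, whose part in this gap was not tested. Of 33 further interferon-inducible genes tested from a list of 38, 5 were higher and 2 lower at 120 min. The shares over all genes tested were 9.43% and 8.56%. Cxcl10, a chemokine that attracts activated T cells, rose 144-fold (126 to 164) and was called from 30 min on, and Ccl5, another T cell chemokine, rose 85.6-fold (54.6 to 143). Slfn2, of the Schlafen family, rose 13.9-fold (13.6 to 14.2), Helz2, a nuclear helicase, 3.84-fold (3.71 to 3.98) and Slfn5 1.65-fold (1.57 to 1.73).

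The 2 that were lower in this list were Pml, which builds nuclear bodies, at 0.397 (0.371 to 0.424), and Tap1, a peptide transporter for antigen presentation, at 0.573 (0.536 to 0.611). The median log2 ratio at 120 min over the 33 genes was 0.03, against 0.35 over the 38 genes described above.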

How the data were processed

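The authors deposited 1 table of raw read counts per gene symbol, with 1 column for each of the 8 libraries. Per the methods, ribosomal RNA was removed, Bowtie placed the 58-base reads on RefSeq transcripts, and a read that matched several gene symbols was dropped; the submitters' processing notes name CASAVA 1.8.2 and DESeq 1.10.1. Discarding shared reads lowers the counts of genes with near-identical copies. From the counts, size factors by the median of ratios, a dispersion trend fitted blind to time (0.0287 plus 0.853 divided by the mean) and an exact negative binomial test of each time against 0 min (doubled smaller tail) were computed with scipy 1.17.1, numba 0.67.0, pandas 2.3.3 and numpy 2.4.6 under Python 3.11.15, following the settings that the study states. The code was checked on simulated counts in which 200 genes were changed 4-fold, and all 200 were called. Of the 11958 unchanged genes tested there, 44 were called too. The simulated counts had less spread than the fitted trend, and genes with few counts were not among the changed ones. The check therefore does not cover calls of rare genes or of small changes. With 1 library a time, edgeR's quasi-likelihood test cannot estimate the spread. Genes that averaged 10 or more normalized counts were tested (12164 of 23141). A total of 2 rows without a RefSeq accession, the spike-in transcripts, held 0.0208% to 0.0316% of the counts and were left out of the genes.

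The interferon-stimulated genes and the pathway lists were chosen with earlier results of these data known. Values in every library are given for the genes called higher at 60 min or before, the 10 with the largest ratio at 120 min and those called lower at any time; from each pathway list, the 4 largest rises and 2 largest falls among called genes are named, together with Ifnb1, Ifnar1, Ifnar2, Irf9, Irf3, Irf1 and Socs1. A further gene of this rule is not reported here. Slfn5 was named after its values were seen, to complete a count of 5. Alternatives were other scales (edgeR 4.0.16 TMM factors in R 4.3.3, total counts with and without Rn45s, spike-in transcripts), other call rules, no minimum mean, the 15 min library as baseline, and fewer libraries. The spike-in scale was added after the data had been seen. Intervals and floors (3 counts for a count of 0) cover counting error only.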

Additional observations from a re-analysis of the deposited data

How the results depend on the processing

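With 1 library per time, no result has a replicate check, and the depth limits genes with few counts such as Mx1, Gbp5 and Ifi205. The number of genes called higher at 30 min, 1 in the report, was 0 with total counts as the scale, with total counts without Rn45s, with Benjamini-Hochberg adjustment over all genes tested, in the 0, 30, 60 and 120 min libraries alone and with the 15 min library as baseline. At 45 min, 2 genes (Gbp2 and Gbp3) were higher with total counts and 0 with the adjustment, in place of 5. Isg15 also lost its 45 min call with total counts without Rn45s. Oasl1 and Parp14 lost theirs with a log2 limit of 1 without a test, and Parp14 also with the 15 min baseline. With the adjustment, 4 were higher at 60 min (Rsad2, Oasl1, Gbp2 and Gbp3), so that Ifit1, Isg15 and Ifih1 lost their call. In the same setting, 1 was lower at 60 min and 1 was lower at 75 min, Trim21 both times. Stat2 thus lost its calls at 60 and 75 min, and Ifit2 and Irgm1 lost theirs at 75 min. With the spike-in transcripts as the scale, an alternative added after the data had been seen, 2 were lower at 75 min, without Stat2 and Irgm1. The cause was not tested. All other 205 values of these counts over the alternatives, including the number first called before 90 min, stayed within 1.5 times, and leaving out any library other than the one at 0 min moved none of them further. Of 485 single ratios at 60 or 120 min over the alternatives, 107 moved beyond their counting interval and 44 came to lie on the other side of 1, none of them in a gene called at that time; for example, at 120 min Oasl2 went from 0.651 to 1.21 with the 15 min baseline, and total counts put Bst2 at 0.976 and Oas3 at 0.952. Of the 14 that moved by over 1.5 times, 12 came with the 15 min baseline, among them Isg15 (4.81 at 60 min and 45.0 at 120 min) and Ifi205 (10.5 at 120 min). Total counts lowered log2 ratios at every time, by up to 0.33 at 75 min; the spike-in scale lowered them by 0.30 at 60 min and 0.11 at 120 min and raised them by up to 0.07 at the other times. The call of Ifi204 at 75 min was lost with total counts, total counts without Rn45s, the adjustment and a log2 limit of 1 without a test. The call of Irf7 at 120 min was lost with total counts, total counts without Rn45s, the spike-in scale, the adjustment, a log2 limit of 1 without a test and the 4 libraries with a low Rn45s share. Without a minimum mean, 16 genes were higher at 120 min, as Mx1 and Gbp5 joined. No paired analysis was possible because each time has 1 library and the labels carry no replicate numbers.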
